A study of Mus musculus with 26 samples.

Results

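Among lactating mice of a mouse intercross, the arrays numbered 1 to 3 were set against those numbered 4 and 5. The series holds 26 arrays of the inguinal mammary gland, and 10 of them came from an Advanced Intercross Line (AIL) of the strains CBA/CaH and QSi5 (generation 14), taken on day 9 of lactation. These 10 arrays carry a sample code, AQ1 to AQ5 or AC1 to AC5. The labels explain neither the letters nor the numbers, and do not say that a number marks a litter, a batch or a day. The first set holds the 6 arrays AQ1, AQ2, AQ3, AC1, AC2 and AC3, and the second the 4 arrays AQ4, AQ5, AC4 and AC5. The members were chosen by the measured log2 values of these same arrays, over all probe sets but the control ones and with the sample code as a factor. Differences between the sets are therefore given as a description, with no test. Parental arrays were used for context only: 6 from lactation day 9 (3 QSi5 and 3 CBA/CaH) and 10 from pregnancy day 12 (5 QSi5 and 5 CBA/CaH). Glands were frozen on collection, with 1 array per sample. The labels do not say whether samples of a group came from separate cages or litters, so p-values measure the spread between these samples alone.

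A lactating mammary gland consists of secretory luminal epithelium, a contractile myoepithelium around it, and a stroma of fibroblasts, collagen matrix and adipocytes that blood vessels run through. Capillaries grow densely around the alveoli during pregnancy and lactation and deliver the substrates of milk. In whole-gland RNA, messages of all these cells are measured together. Fewer cells of a type and less RNA per cell cannot be told apart in such samples.

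The unit is the log2 expression value of a probe set. Where a gene had several probe sets, the one with the highest mean across the 26 arrays stands for it. The AIL array medians lay between 5.13 and 5.22. The first principal component of the 10 AIL arrays held 24.4% of their variance and placed all arrays of the first set at positive scores (lowest 13.7, highest 23.6) and all of the second at negative scores (lowest -35.3, highest -23.3). The second component held 15% and set AC3 (-41.9) and AC1 (31.1) apart. Skeletal muscle markers were high on AC1, and control transcripts were low on AC3. A gene is called separated here when every array of one set lay above every array of the other. Of 18193 genes, 553 were separated and higher in arrays 1 to 3 (3.04%), and 771 were separated and lower (4.24%). Leaving out 1 array made separation easier by construction, and the counts passed 1.5 times the full ones without AQ4 (830 higher, 1177 lower) and, for the higher genes, without AQ5 (844). Without both AC1 and AC3, 909 were higher and 1302 lower. At a difference of at least 2-fold, 28 genes were higher (0.154%) and 1 was lower (0.0055%). The median difference over all genes was -0.02 log2 units, 46.1% of genes were positive, and the central 95% of genes lay between -0.42 and 0.41.

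Endothelial genes held the largest share of separated members among the 37 lists. All 34 measured members of the endothelial list had a positive difference, and 22 of them were separated, against 3.04% of all genes and 4.74% of genes at levels between 6 and 7, where the list's median of 6.54 lies. The members' differences ranged from 0.04 to 1.5 log2 units with a median of 0.64, which is 1.56-fold, against a median of -0.02 over all genes, and without both AC1 and AC3 the median was 0.59. The median of the list on each array, relative to the mean of each gene over the 10 arrays, was lowest at 0.22, 0.27 in the middle and highest at 0.35 in arrays 1 to 3. It was -0.37 on AQ4, -0.39 on AQ5, -0.35 on AC4 and -0.32 on AC5. The 2 sets did not overlap, and each was narrow compared with the gap between them. The same scale gave -0.48 to -0.26 for the 6 parental lactation arrays (median -0.38), a range that held arrays 4 and 5 and lay below arrays 1 to 3. The parental lactation arrays also stood apart from all 10 AIL arrays in control measures. For Gapdh, the 3' minus 5' value lay between 0.54 and 0.80 on the AIL arrays and between 1.12 and 2.02 on the parental ones. For Actb it lay between 0.87 and 1.32 on the AIL arrays and between 1.54 and 2.58 on the parental ones, and for the poly-A spikes between 0.31 and 0.51 on the AIL arrays and between 1.44 and 2.00 on the parental ones. The poly-A spike level was 8.51 to 9.90 on the AIL arrays and 6.61 to 7.99 on the parental ones. The part of these measures in any placement of AIL against parental arrays was not tested.

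**Figure D1:**
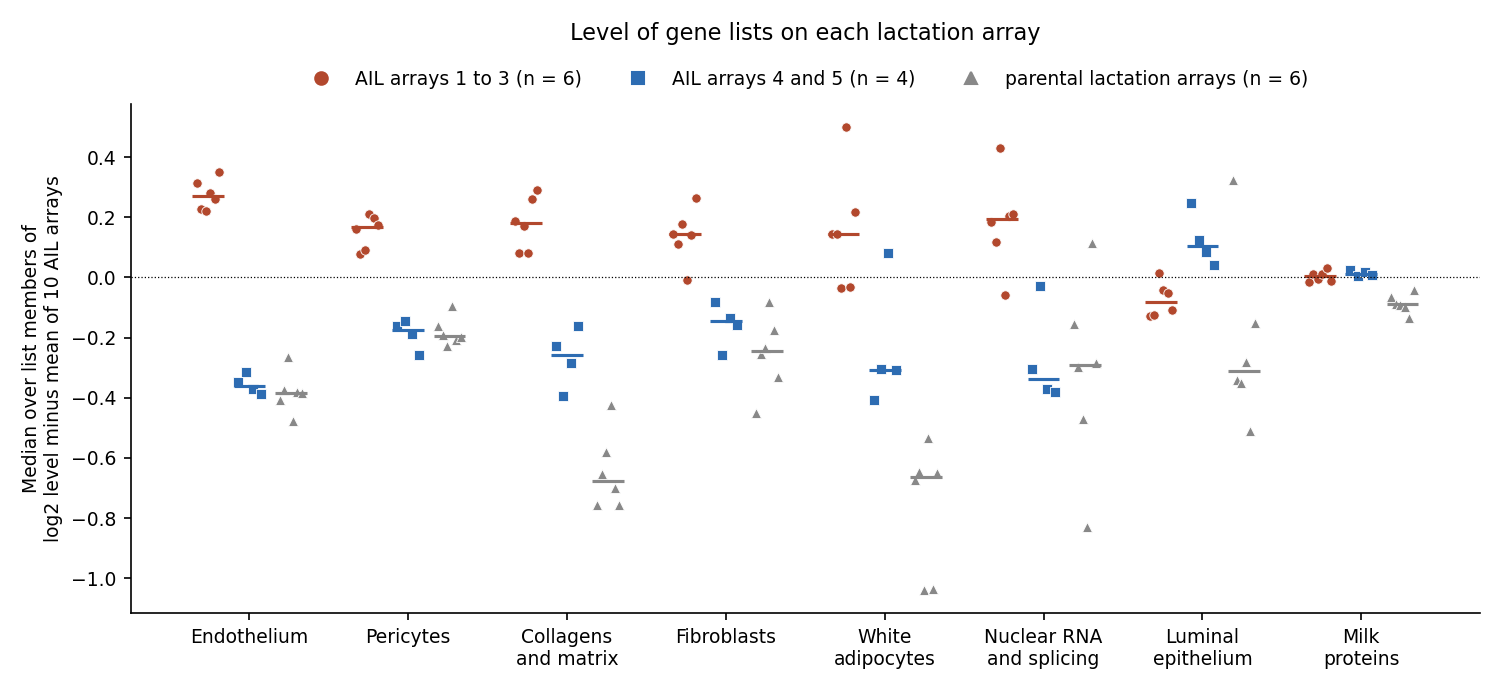
Median over the members of marker lists on each AIL array, in log2 units relative to each gene's mean over the 10 AIL arrays, with 1 point per array and lines at the medians of the sets, with arrays 1 to 3 left of arrays 4 and 5 and the 6 parental lactation arrays on the right. The endothelial score was 0.22 to 0.35 in arrays 1 to 3 and -0.39 to -0.32 in arrays 4 and 5, and the luminal score lay lower in arrays 1 to 3.

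Cd93, a C-type lectin-like receptor of endothelial cells, had the largest endothelial difference. Its level was 7.30 at the lowest, 7.48 in the middle and 7.66 at the highest in arrays 1 to 3, against 6.03 on AQ4, 5.72 on AQ5, 6.11 on AC4 and 6.05 on AC5. The sets stood 1.5 log2 units apart (SE 0.11), a 2.84-fold difference. Of its 5 probe sets, however, 2 were separated and higher and 1 was separated and lower, so the probe sets disagreed. Adgrf5, an adhesion G protein-coupled receptor of endothelium, ran from 8.08 through a median of 8.36 to 8.55 in arrays 1 to 3, against 6.71 on AQ4, 6.73 on AQ5, 6.95 on AC4 and 7.23 on AC5. Its sets did not overlap, with a difference of 1.42 (SE 0.11).

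Aqp1, the water channel of capillary endothelium and red cells, was 10.07 at the lowest, 10.18 in the middle and 10.44 at the highest in arrays 1 to 3, against 8.70 on AQ4, 8.58 on AQ5, 9.05 on AC4 and 9.15 on AC5. The sets did not overlap, and the difference was 1.35 (SE 0.12). Mmrn2, an extracellular matrix protein of vessels that binds Cd93, was 6.96, 7.05 and 7.29 (lowest, median and highest) in arrays 1 to 3, against 5.92, 5.88, 5.97 and 6.36 on AQ4, AQ5, AC4 and AC5. All 4 of its probe sets were separated and higher. Aplnr, the apelin receptor, was 7.38, 7.55 and 8.08 in arrays 1 to 3, against 6.99, 5.99, 7.10 and 6.21 on AQ4, AQ5, AC4 and AC5. Its difference was 1.07 (SE 0.21), with no overlap but a gap that AC4 and AQ4 made small. The other probe set of Aplnr overlapped with -0.07.

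Pecam1, Cdh5 and Kdr, which textbooks use to define endothelium, differed less than the genes just described but more than the list median of 0.64. Pecam1 (CD31), a junctional adhesion molecule, was 7.21, 7.26 and 7.41 (lowest, median and highest) in arrays 1 to 3, against 6.54, 6.05, 6.41 and 6.28 on AQ4, AQ5, AC4 and AC5, a difference of 0.96 (SE 0.10). Cdh5, the vascular endothelial cadherin, was 6.42, 6.57 and 6.70 in arrays 1 to 3, against 5.69, 5.30, 5.77 and 5.94 on AQ4, AQ5, AC4 and AC5, a difference of 0.88 (SE 0.11). Kdr, the main receptor for vascular endothelial growth factor, was 7.46, 7.63 and 7.81 in arrays 1 to 3, against 6.18, 6.70, 7.09 and 6.85 on AQ4, AQ5, AC4 and AC5, a difference of 0.94 (SE 0.14). None of these 3 genes overlapped between the sets, though another probe set of Cdh5 did, with -0.13.

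Other members are given with their names chosen after their values were seen. Flt1, another receptor for vascular endothelial growth factors, stood 0.97 higher, the junction protein Esam 1.01 and the receptor phosphatase Ptprb 1.01. Tek, the angiopoietin receptor, stood 0.86 higher, and Gpihbp1, which carries lipoprotein lipase to the capillary lumen, 0.91. The transcription factor Sox18 stood 0.75 higher, Fli1 0.52 and the capillary sialomucin Emcn 0.55. All of these were separated. Tie1 (0.68) and Cldn5 (0.67) had differences of similar size but overlapped between the sets.

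A minority of endothelial genes overlapped between the sets. Vwf, the clotting factor carrier of endothelial granules, was 4.89, 4.95 and 5.35 in arrays 1 to 3, against 4.63, 4.77, 5.01 and 4.94 on AQ4, AQ5, AC4 and AC5. The sets overlapped, the difference was 0.18 (SE 0.11), and within the AC arrays alone it was -0.02. The apelin ligand Apln (0.11) and the secreted vascular factor Egfl7 (0.13) overlapped as well. Other probe sets of Egfl7 gave 0.68, separated and higher, 0.61 and -0.22 with overlap, so they disagreed. The 7 measured markers of lymphatic endothelium had a median difference of 0.01, and 1 member was separated and lower. Their median level was low, at 5.26, so a contrast with blood vessels is limited. Of all genes between 5 and 6, where that level lies, 0.98% were separated and lower, and 1.47% of those under 5. The separated member was Prox1, the defining transcription factor of lymphatic endothelium, with a difference of -0.53 (SE 0.15). It lay at a low level of 4.28, and its other probe sets overlapped with -0.36 and -0.24.

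**Figure D2:**
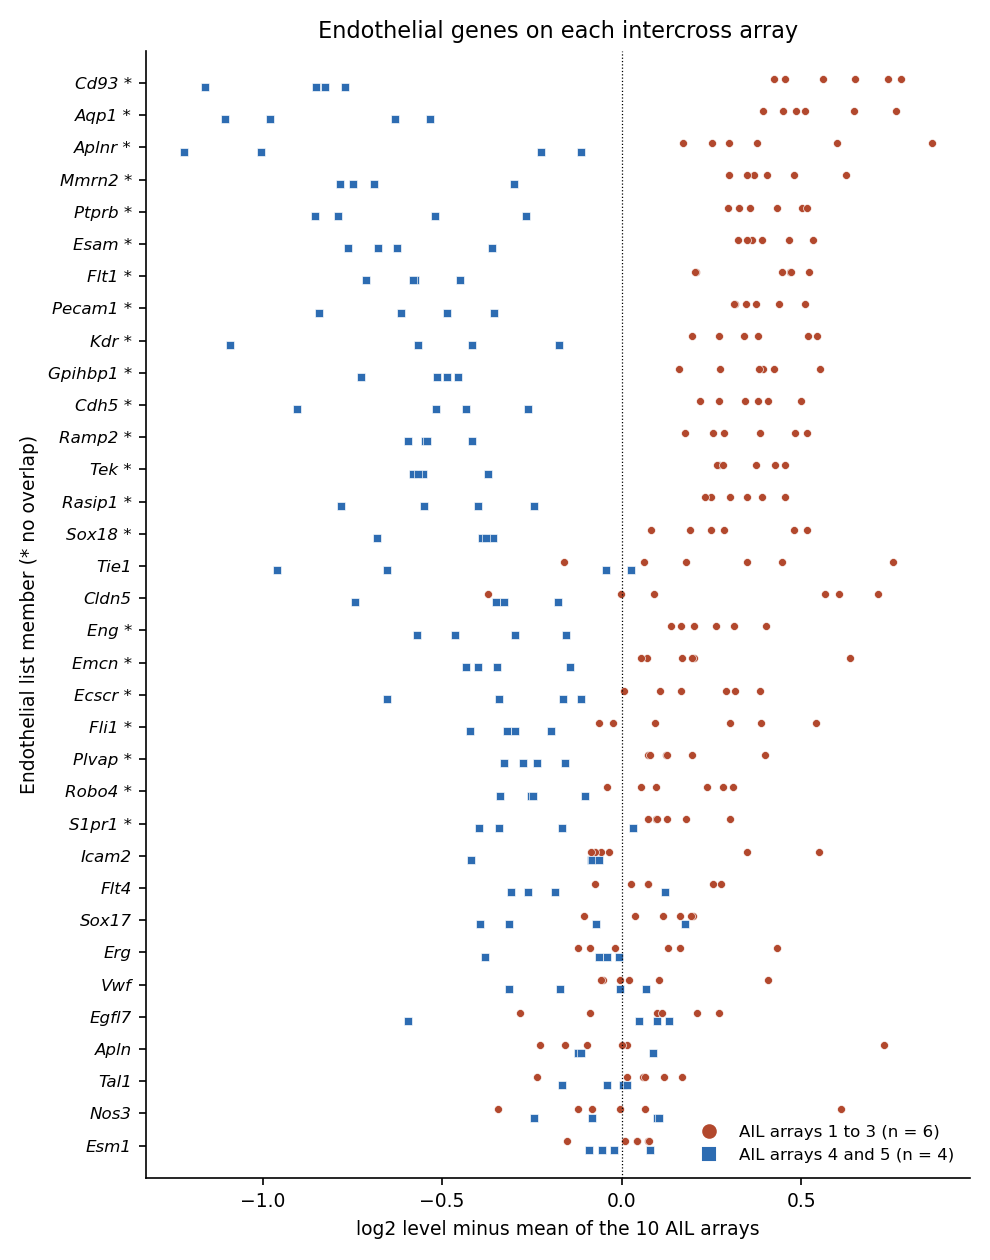
Level of the 34 endothelial list members on each AIL array, as log2 value minus the gene's mean over the 10 arrays, with arrays 1 to 3 drawn just above arrays 4 and 5 and 1 point per array. An asterisk marks the 22 genes without overlap, with Cd93 at the top, while Vwf, Apln and Egfl7 near the bottom overlapped.

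ETS factors, which bind a short core sequence, are known regulators of endothelial genes, and 3 promoters are printed because these genes are among those with the endothelial difference. They are the 250 bases before the RefSeq start on GRCm38.p6, read 5′ to 3′ on the gene's strand, for Aqp1 (chr6:55336049-55336298, plus strand), Flt1 (chr5:147726012-147726261, minus strand) and Kdr (chr5:75978456-75978705, minus strand). Capitals mark the 5 letters GGAAG, or CTTCC where they stand on the other strand.
Aqp1: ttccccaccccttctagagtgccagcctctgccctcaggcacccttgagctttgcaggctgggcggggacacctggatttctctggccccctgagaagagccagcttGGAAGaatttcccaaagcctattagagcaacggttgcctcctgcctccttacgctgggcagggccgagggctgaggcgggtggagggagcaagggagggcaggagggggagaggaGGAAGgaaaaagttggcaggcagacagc
Flt1: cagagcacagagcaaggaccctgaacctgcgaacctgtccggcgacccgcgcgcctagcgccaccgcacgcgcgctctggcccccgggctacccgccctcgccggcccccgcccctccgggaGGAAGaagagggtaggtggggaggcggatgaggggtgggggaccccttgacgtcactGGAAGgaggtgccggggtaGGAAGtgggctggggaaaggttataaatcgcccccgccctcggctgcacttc
Kdr: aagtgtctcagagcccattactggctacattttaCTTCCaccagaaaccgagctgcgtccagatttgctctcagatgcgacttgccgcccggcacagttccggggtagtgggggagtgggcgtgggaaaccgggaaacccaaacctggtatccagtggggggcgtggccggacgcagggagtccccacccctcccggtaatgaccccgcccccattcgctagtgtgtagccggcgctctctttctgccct
The letters occurred 2 times for Aqp1, 3 times for Flt1 and 1 time for Kdr. They occurred in 11 of the 16 endothelial list promoters that matched the RefSeq table (68.8%), and in 63.6% of 27025 promoters of the same length. A match is a string of letters and not a binding site, and the share in the endothelial promoters lay near that of all promoters.

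Pericytes and the vessel wall differed in fewer genes. Of 14 measured markers 10 were positive and 2 were separated and higher, with a median of 0.37. Among all genes between 6 and 7, where the list's median level of 6.55 lies, 4.74% were separated and higher. Abcc9, a subunit of the potassium channel of pericytes, was 6.40, 6.65 and 7.12 (lowest, median and highest) in arrays 1 to 3, against 5.46, 5.34, 5.69 and 5.42 on AQ4, AQ5, AC4 and AC5, with a difference of 1.23 (SE 0.13). Rgs5, a G protein regulator of mural cells, was 8.39, 8.63 and 8.71 in arrays 1 to 3, against 7.03, 7.64, 7.58 and 7.86 on AQ4, AQ5, AC4 and AC5, with a difference of 1.05 (SE 0.14). Neither overlapped between the sets, though another probe set of Abcc9 did, with 0.07. Notch3 (-0.20) and Angpt1 (-0.05) overlapped. Smooth muscle actin, Acta2, which both vessel walls and myoepithelium express, had a difference of -0.03, and of 0.36 within the AQ arrays alone.

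Matrix genes formed the second group. Of 31 measured collagen and matrix genes, 28 were positive, 14 were separated and higher, and none was separated and lower. Of all genes 3.04% were separated and higher, and 4.29% of those between 7 and 8, where the list's median level of 7.82 lies. The median was 0.41, or 1.33-fold. Col4a1 and Col4a2, which form the collagen of basement membranes, led with Timp3, a matrix-bound inhibitor of metalloproteinases. Col4a2 was 8.49, 8.66 and 8.84 in arrays 1 to 3, against 7.54, 7.55, 7.89 and 7.63 on AQ4, AQ5, AC4 and AC5, a difference of 0.99 (SE 0.10). Col4a1 was 9.23, 9.40 and 9.68 in arrays 1 to 3, against 8.46, 8.43, 8.64 and 8.70 on AQ4, AQ5, AC4 and AC5, a difference of 0.86 (SE 0.10). All 4 probe sets of Timp3 were separated, and its difference was 0.94 (SE 0.15). Col6a1, of the microfibrillar collagen, stood 0.70 higher (SE 0.10) and Col1a1, of the main fibrillar collagen, 0.54 higher (SE 0.12), both separated. Col3a1 (0.37) and the inhibitor Timp2 (-0.21) overlapped between the sets. Sparc, a collagen-binding protein that the lists place with myoepithelium, was 11.16, 11.38 and 11.44 in arrays 1 to 3, against 10.51, 10.75, 10.59 and 10.44 on AQ4, AQ5, AC4 and AC5. It was the 1 separated member of that list, whose median was 0.06. The other probe sets of Sparc overlapped, with 0.28 and 0.13.

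Fibroblast markers followed at a smaller size. Of 26 markers 22 were positive, 8 were separated and higher, and the median was 0.28. The share separated and higher was 4.74% among all genes between 6 and 7, where the list's median level of 6.43 lies. Cd34, a sialomucin of stromal progenitors that capillary endothelium also carries, was 5.95, 6.15 and 6.41 in arrays 1 to 3, against 5.59, 5.82, 5.44 and 5.02 on AQ4, AQ5, AC4 and AC5 (difference 0.70, SE 0.12). Dcn, the collagen-binding proteoglycan decorin, was 10.10, 10.23 and 10.46 in arrays 1 to 3, against 9.61, 9.86, 10.01 and 9.74 on AQ4, AQ5, AC4 and AC5, a difference of 0.43. Both were separated, as were Mfap5 (0.63), a microfibril protein, and Serpinf1 (0.56), a secreted serpin. Lum (0.40), Gsn (0.39) and Pdgfra (0.24), the growth factor receptor that defines many fibroblasts, overlapped. Another probe set of Gsn was separated and higher, with 0.66. Vim, the intermediate filament of stromal and endothelial cells, was 8.22, 8.61 and 8.84 in arrays 1 to 3, against 7.70, 7.56, 7.61 and 7.61 on AQ4, AQ5, AC4 and AC5. It did not overlap and differed by 0.96 (SE 0.11).

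White adipocyte markers had a median of 0.40, and 16 of 17 were positive, but only 3 were separated. That compares with 4.29% of all genes separated and higher between 7 and 8, where the list's median level of 7.69 lies. Fabp4, the fatty acid carrier of adipocytes and capillaries, was 11.99, 12.26 and 12.47 in arrays 1 to 3, against 11.77, 11.33, 11.47 and 11.67 on AQ4, AQ5, AC4 and AC5, and all 4 of its probe sets were separated. The lipid droplet protein Plin4 (0.74) and the hormone-sensitive lipase Lipe (0.70) were the other 2 separated members. Another probe set of Lipe overlapped, with -0.16. Adipoq, the adipocyte hormone adiponectin, differed by 0.41 with overlap, and Pnpla2 by -0.01. Without AQ4, 8 members were separated. The list scores overlapped, and AQ4 lay at 0.08 while the other arrays of its set lay between -0.41 and -0.30.

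Luminal epithelial markers were mostly negative, by small steps. Of 18 measured markers 3 were positive and 4 were separated and lower, and the median was -0.16. The markers had a median level of 9.01, and 11.6% of all genes between 8 and 9 and 14.1% of those at 9 or more were separated and lower, with medians of -0.11 and -0.12. With the mean of all probe sets of a gene, 1 marker was separated and lower and the median was -0.07, so the list stood little apart from genes of its level. Grhl2, a transcription factor that maintains epithelial junctions, was 7.44, 7.77 and 7.95 in arrays 1 to 3, against 8.54, 8.13, 8.19 and 8.54 on AQ4, AQ5, AC4 and AC5 (difference -0.63, SE 0.13). Ocln, the tight junction protein occludin, was 6.77, 7.15 and 7.43 in arrays 1 to 3, against 7.55, 7.52, 7.56 and 7.65 on AQ4, AQ5, AC4 and AC5 (difference -0.43, SE 0.10). Epcam, the epithelial adhesion molecule, was 10.40, 10.46 and 10.64 in arrays 1 to 3, against 10.69, 10.73, 10.88 and 10.84 on AQ4, AQ5, AC4 and AC5 (difference -0.30, SE 0.08). These and the protease inhibitor Spint1 (-0.24, SE 0.09) were separated, but the probe sets disagreed. The other 3 of Grhl2 overlapped with positive differences (0.16, 0.17 and 0.03), as did the other 1 of Epcam (0.27). The other 1 of Ocln overlapped with -0.18. Keratins Krt8 (-0.13) and Krt18 (-0.12), Spint2 (-0.24) and the epithelial cadherin Cdh1 (0.03) overlapped, and Krt18 was positive at 0.11 within the AQ arrays alone. The luminal median was -0.07 after another quantile normalization of the 10 arrays and -0.08 without AC2.

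Most milk protein genes lay too near the top of the scale for a difference to be read. The 15 milk protein genes had a median level of 14.5, where the highest value of the table was 15.1. Their median difference was -0.02, and the 2 separated members, Wap and Btn1a1, were lower by small steps. Among all genes at a level of 9 or more, 14.1% were separated and lower. The whey protein gene Wap was 14.997 at the lowest, 15.03 in the middle and 15.05 at the highest in arrays 1 to 3, against 15.06 to 15.07 on arrays 4 and 5. The step of -0.04 (SE 0.07) was not read further. Btn1a1, which coats milk fat, differed by -0.05, and the beta-casein gene Csn2 by -0.03 with overlap. Probe sets lower on the scale gave other values. A second one of Csn3, the kappa-casein gene, had a level of 9.91 and was separated and higher by 2.24. Of the other 2 of Btn1a1, 1 was separated with a difference of -0.63 and 1 overlapped with 0.56. These were named after their values were seen. Lalba, the lactose synthase subunit, was 14.52, 14.62 and 14.69 in arrays 1 to 3, against 13.87, 14.64, 14.60 and 14.58 on AQ4, AQ5, AC4 and AC5, with AQ4 alone low. The 25 genes of milk fat synthesis had a median of -0.01, and 28 cell cycle genes had 0.03 with none separated.

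A further group was nuclear. Of 24 measured nuclear RNA and splicing genes, 21 were positive, 9 were separated and higher, and the median was 0.40. Among all genes between 8 and 9, where the list's median level of 8.94 lies, 3.57% were separated and higher. Neat1, a long noncoding RNA that builds paraspeckles, was 9.97, 10.24 and 11.28 in arrays 1 to 3, against 8.12, 8.83, 9.10 and 9.06 on AQ4, AQ5, AC4 and AC5 (difference 1.67, SE 0.24). Ogt, the enzyme that adds N-acetylglucosamine to nuclear proteins, was 7.88, 8.50 and 8.73 in arrays 1 to 3, against 6.58, 7.32, 7.39 and 7.70 on AQ4, AQ5, AC4 and AC5 (difference 1.21, SE 0.17), and 4 of its 5 probe sets were separated. Ccnl2, a cyclin of splicing speckles, was 8.50, 8.85 and 9.04 in arrays 1 to 3, against 7.63, 7.86, 7.55 and 7.90 on AQ4, AQ5, AC4 and AC5 (difference 1.1, SE 0.12), with all 3 probe sets separated. Malat1, the abundant noncoding RNA of splicing speckles, differed by 0.31 (SE 0.22) with overlap, as did Hnrnpa2b1 (0.22). Another probe set of Hnrnpa2b1 was separated and higher, with 1.11. The RNA helicase Ddx5 differed by 0.88 (SE 0.17), but 1 of its 6 probe sets was separated. Ribosome and respiration genes lay near the background of their level. Of 23 ribosome genes 4 were separated and lower and 1 higher, with a median of -0.12, and of 23 respiration genes 4 were separated and lower, with a median of -0.10. Among all genes with a mean of 9 or more, 14.1% were separated and lower, with a median of -0.12.

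The 10 genes with the highest difference among the separated ones included Cd93, Adgrf5, Aqp1 and Neat1. Gdap10, a long noncoding RNA in RefSeq, came first: it was 6.78, 7.60 and 8.09 in arrays 1 to 3, against 5.34, 5.51, 5.64 and 6.43 on AQ4, AQ5, AC4 and AC5 (difference 1.76, SE 0.17). Btnl9, a butyrophilin-like protein, was 7.17, 7.53 and 8.22 in arrays 1 to 3, against 5.63, 5.86, 5.77 and 6.35 on AQ4, AQ5, AC4 and AC5 (difference 1.71, SE 0.18). Its other probe set overlapped, with -0.13. Firre, a noncoding RNA of the X chromosome that organises chromatin, differed by 1.48 (SE 0.17) and all 4 of its probe sets were separated. The remaining ones not yet described were the membrane protein Tmem182 (1.42, SE 0.23), Rsrp1 (1.26, SE 0.10) and the elongation factor cyclin Ccnt2 (1.26, SE 0.18). Only 1 of the 5 probe sets of Ccnt2 was separated.

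The genes with the lowest differences were further from any list. Tspan8, a tetraspanin of epithelia, was 6.21, 6.83 and 7.60 in arrays 1 to 3, against 8.27, 8.48, 8.18 and 7.69 on AQ4, AQ5, AC4 and AC5 (difference -1.35, SE 0.22). It was the 1 gene lower by at least 2-fold, through 1 of its 5 probe sets. Csnk2a1, the catalytic subunit of casein kinase 2, was 7.98, 8.29 and 8.67 in arrays 1 to 3, against 9.29, 9.11, 9.15 and 9.00 on AQ4, AQ5, AC4 and AC5 (difference -0.83, SE 0.13), while its other probe sets overlapped. The polarity scaffold Mpp7 (-0.78, SE 0.11) was separated in 3 of 5 probe sets. Hsbp1l1 (-0.86), the sialyltransferase St6galnac3 (-0.85), Pigx (-0.83), the hyaluronidase Cemip2 (-0.79), the stress protein Sesn3 (-0.79), the inflammasome adaptor Pycard (-0.78) and Gngt1 (-0.75) made up the remainder. Where these genes had other probe sets, those overlapped, with 0.37 and -0.01 for St6galnac3. The gap of Cemip2 was narrow, from 5.73 at the highest in arrays 1 to 3 to 5.75 at the lowest in arrays 4 and 5.

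The 2 directions differed in level. Among genes with a mean of 9 or more on the AIL arrays, 14.1% were separated and lower and 2.38% higher. Among genes between 5 and 6, 0.98% were lower and 3.50% higher. Probe sets with no gene symbol showed the same turn: between 6 and 7, 10.1% were separated and higher and 1.93% lower, against 15.4% lower and 5.77% higher at 9 or more. Protein-coding genes were separated and higher in 3.16% of cases, and long noncoding RNAs in 1.85%. Over the 19 autosomes and X, the share separated and higher ran from 1.42% to 4.05% of a chromosome's genes, and the share separated and lower from 3.10% to 5.65%.

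**Figure D3:**
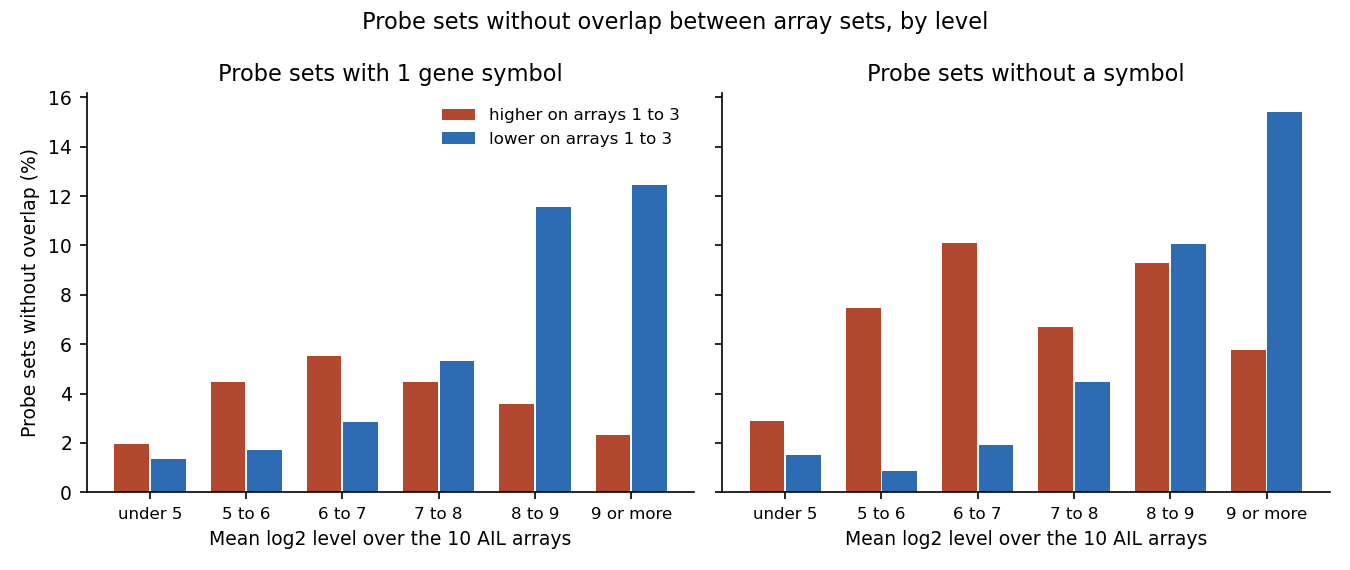
Percentage of probe sets without overlap between arrays 1 to 3 and arrays 4 and 5 in each class of mean log2 level over the 10 arrays, split by direction, for probe sets with 1 gene symbol (left) and without a symbol (right). Without a symbol, the share lower in arrays 1 to 3 was 15.4% at a level of 9 or more, and the share higher was 10.1% between 6 and 7.

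The difference is given within each sample code next. The code was a factor in the choice of the division and the values are the same, so likeness of AQ and AC is a description and no independent support for the difference. In AQ arrays the endothelial median was 0.69, and in AC arrays 0.64. Collagen and matrix genes had 0.35 in AQ and 0.48 in AC, and luminal markers -0.11 in AQ and -0.28 in AC. In limma, 0 of 45037 probe sets (0%) had a set difference that differed between AQ and AC after Benjamini-Hochberg adjustment, with 1957 at an unadjusted p under 0.05. On simulated data this test recovered 30% of changes of 1 log2 unit and 86% of changes of 2 units, so most differences of 1 unit between the codes would have been missed, and the count of 0 does not show that the codes were alike. Without AQ4 it called 10 probe sets, without AQ5 6, without AC5 5 and without AQ2 1. AQ against AC, with the set as a factor, likewise gave 0 of 45037 (0%) in limma, with 2309 at an unadjusted p under 0.05. The simulation recovered 95% of changes of 1 unit, but with 100 probe sets changed by 1 unit and 100 by 2 units. The adjustment is stricter where fewer probe sets change, so here too the count of 0 does not show that the codes were alike. Without AQ4 the comparison of AQ against AC gave 5 and without AC1 1. The skeletal muscle list had an overall median of 0.61, with -0.14 in AQ and 1.33 in AC. Its score was 3.28 on AC1 and between -0.49 and -0.30 on the other arrays of its set, and without AC1 its overall median was -0.07.

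**Figure D4:**
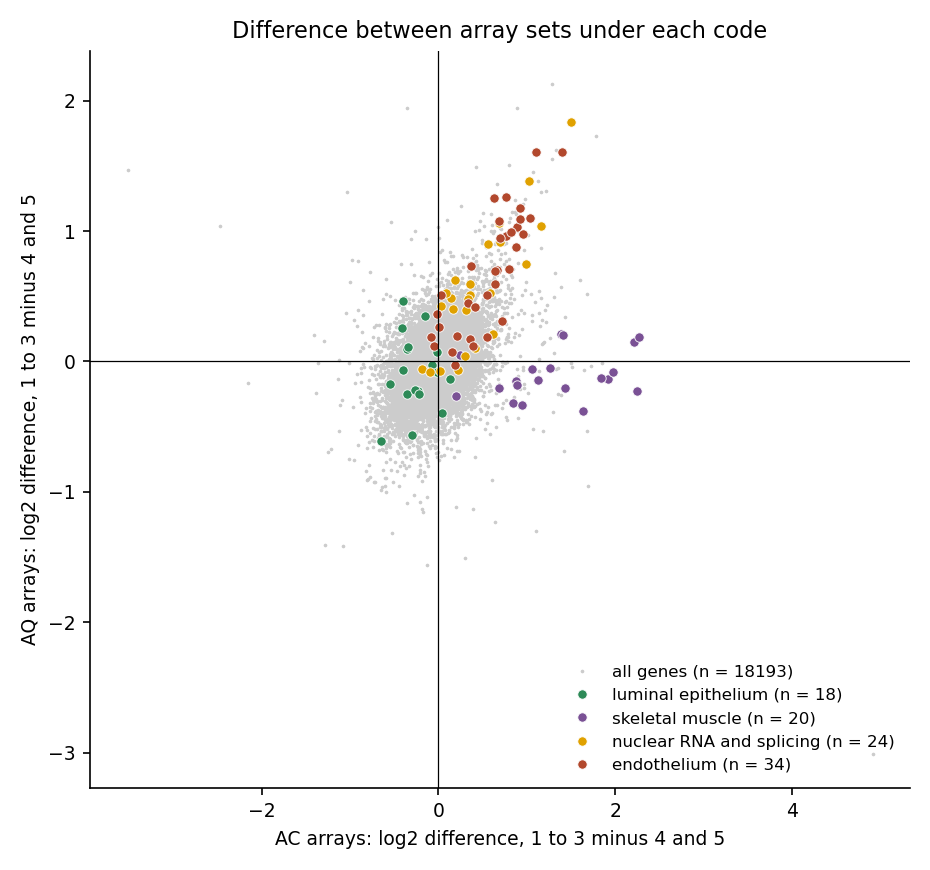
Difference between arrays 1 to 3 and arrays 4 and 5 (log2 units) for each gene within the AQ arrays and within the AC arrays. Endothelial genes, in red, have medians of 0.69 on the vertical AQ axis and 0.64 on the horizontal AC axis, and skeletal muscle genes spread along the AC axis only, through the array AC1.

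The parental arrays, which had no part in the division, show what the same genes do between stages. Stage was strongly marked overall: limma called 36.8% of genes lower and 39.1% of genes higher at lactation than at pregnancy. With equal array medians the same counts became 42.6% lower and 28.0% higher. With quantile normalization 27.8% were lower and 37.7% higher. The median gene stood at 0.05 log2 units as deposited, 0.10 with quantile normalization and -0.15 with equal medians, so a change is read relative to that shift. Of the genes separated and higher in arrays 1 to 3, 48.6% were lower at lactation and 27.7% higher. Under quantile normalization these shares came close, at 37.6% lower and 32.7% higher. Of the separated and lower genes, 45.1% were lower at lactation and 22.8% higher, but under quantile normalization this turned to 21.7% lower and 40.7% higher. Of the 28 genes higher by at least 2-fold, 23 were lower at lactation and 1 was higher, and under quantile normalization 19 were lower and 2 higher. For 23 of the 28, arrays 4 and 5 lay nearer the parental lactation mean than arrays 1 to 3 did, against 40.9% of all genes. The share was 48.3% among all 553 separated and higher genes and 26.3% among the 771 separated and lower ones. This nearness is a description, since the parental arrays differed from every AIL array in the 3' minus 5' values and the spike level given above.

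Most endothelial genes were lower at lactation in the parents. Of 34 members 20 were called lower at lactation and 1 higher, against 36.8% and 39.1% of all genes, and under equal medians 23 were lower. Under quantile normalization 19 were lower and 5 higher. Aplnr fell by 4.25 log2 units (SE 0.25, adjusted p = 1.78e-09), Cd93 fell by 2.25 (SE 0.36, adjusted p = 5.02e-05) and Cdh5 fell by 1.64 (SE 0.17, adjusted p = 6.43e-07), by limma on 6 lactation and 10 pregnancy arrays. Vwf, which overlapped between the AIL sets, fell by 2.35 (SE 0.17, adjusted p = 1.44e-08). Aqp1 fell by 1.22 (SE 0.33, adjusted p = 0.00406), but by quantile normalization the change was -0.54 with an adjusted p of 0.147. Relative to parental lactation arrays, the endothelial median was 0.63 in arrays 1 to 3 and 0.10 in arrays 4 and 5, and these values share the parental arrays and the control differences given above. Other lists stood above the parents in both sets, such as secretory regulators (0.39 in arrays 1 to 3, 0.61 in arrays 4 and 5) and folding genes of the endoplasmic reticulum (0.47 in arrays 1 to 3, 0.57 in arrays 4 and 5).

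The matrix list was similar in the parents, with 23 of 31 lower and 1 higher at lactation, against 36.8% and 39.1% of all genes. Under quantile normalization 18 were lower and 1 higher, against 27.8% and 37.7% of all genes. Col4a1 fell by 3.01 log2 units (SE 0.19, adjusted p = 3.07e-09) and Col4a2 fell by 2.66 (SE 0.21, adjusted p = 3.22e-08). Relative to parental lactation, matrix genes stood at a median of 0.87 in arrays 1 to 3 and 0.34 in arrays 4 and 5. Among luminal markers 16 of 18 were also lower at lactation, including Epcam, which fell by 1.94 (SE 0.24, limma adjusted p = 5.03e-06) in the parents. With quantile normalization 14 luminal markers were lower and 2 higher. Being lower at lactation was thus common to lists with positive and with negative medians between the AIL sets. In the nuclear list 18 of 24 were lower at lactation, and with quantile normalization 14 were lower and 4 higher. Malat1, by contrast, was higher by 2.80 (SE 0.47, limma adjusted p = 8.32e-05). Neat1 was 0.41 higher (SE 0.35, adjusted p = 0.302), and 1.00 higher with an adjusted p of 0.0185 under quantile normalization.

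Between the parental strains at lactation, limma called 63 genes (0.346%) for QSi5 against CBA/CaH, and 0 of the separated genes were among them. The simulation recovered 57% of changes of 1 unit there, and 130 probe sets were called in all.

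The spiked and housekeeping controls, which were left out of the division, describe the arrays. The level of the poly-A transcripts added to each RNA was 8.51, 8.97 and 9.30 in arrays 1 to 3, against 9.45, 9.49, 9.77 and 9.90 on AQ4, AQ5, AC4 and AC5. The sets did not overlap, with a difference of -0.73 and a two-sided exact permutation p of 0.01 within code, the smallest that 100 arrangements allow, and 0.06 after Benjamini-Hochberg adjustment over 6 measures. The 3' minus 5' value of the spikes was 0.32, 0.43 and 0.51 in arrays 1 to 3, against 0.31 to 0.38 in arrays 4 and 5 (exact permutation p = 0.04, adjusted 0.12). That of Gapdh, often read as RNA integrity, differed by -0.02 (exact permutation p = 0.67), and that of Actb by 0.09 (exact permutation p = 0.35). The spike level thus differed along the division, and its part in the endothelial, matrix, nuclear and luminal differences was not tested.

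**Figure D5:**
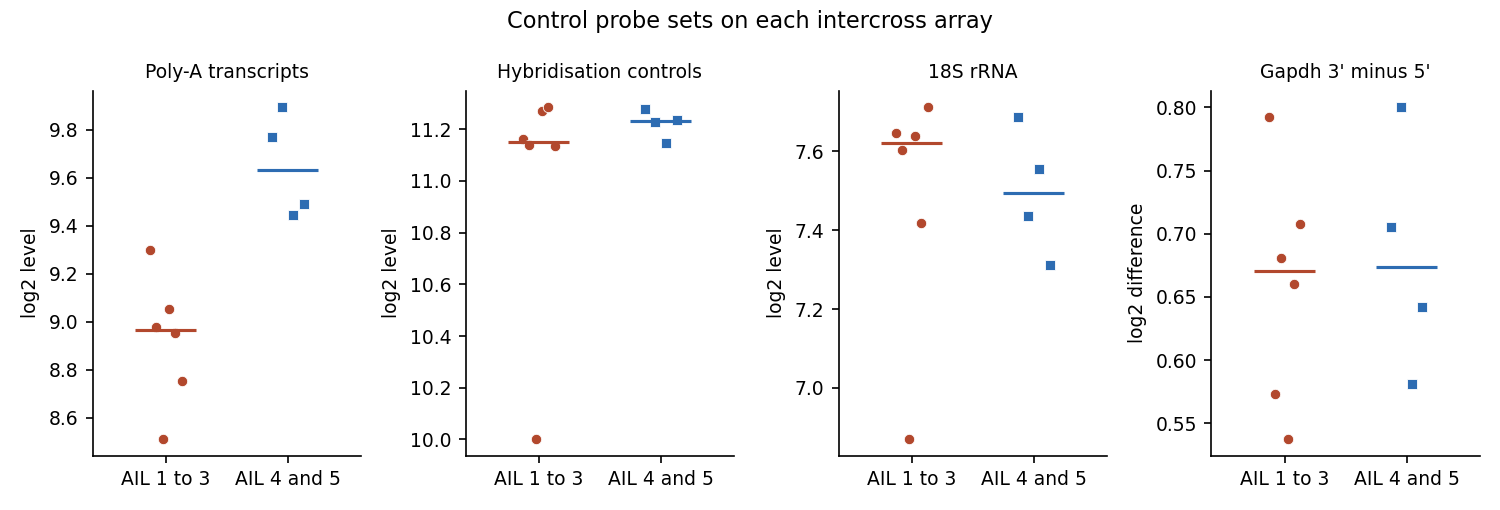
Control measures on each AIL array (log2 units) with lines at the medians, arrays 1 to 3 left of arrays 4 and 5. The poly-A spike level lay between 8.51 and 9.30 in arrays 1 to 3 and between 9.45 and 9.90 in arrays 4 and 5, while the Gapdh 3' minus 5' value overlapped.

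Blood and immune cell lists had smaller medians than the endothelial and matrix lists. The 5 measured erythroid and platelet genes had a median of 0.21 and none was separated, the 21 macrophage and dendritic genes had 0.12 with 1 separated and higher, and the 15 B and plasma cell genes had 0.02 with none separated. Of all genes, 3.04% were separated and higher. Of 10 measured hormone-sensing and progenitor markers, Tnfsf11 (-0.51) and Esr1 (-0.43) were separated and lower, with a list median of -0.09. Among genes between 5 and 6, where the list's median level of 5.79 lies, 0.98% were separated and lower. Esr1 lay at 9.85, where 14.1% were, and another of its probe sets was separated and higher by 0.33. The 16 cholesterol synthesis genes had a median of -0.28, with 1 separated and lower. Among all genes between 8 and 9, where the list's median level of 8.21 lies, 11.6% were separated and lower, with a median of -0.11.

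Some probe sets without a gene symbol had larger differences than any named gene. For 1431214_at the difference was 2.80 (SE 0.97), but it rested on AC4 at 6.19, since AQ4 was at 12.01, AQ5 at 13.02 and AC5 at 13.09, and arrays 1 to 3 lay between 13.71 and 14.12. For 1443624_at the arrays 1 to 3 had 5.40 at the lowest, 6.45 in the middle and 7.0 at the highest, against 4.20, 4.6, 4.51 and 4.41 on AQ4, AQ5, AC4 and AC5, without overlap.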

How the data were processed

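RNA of 26 inguinal mammary glands was hybridised to Affymetrix mouse genome arrays, per the labels. Each deposited value is the log2 level of a probe set, which the authors computed by RMA, per the submitters' processing notes. Version, chip definition and whether all arrays were processed together are not given in the sources used here. The values were used as deposited. Of 45101 probe sets, 64 AFFX controls were left out and 45037 were tested; a table of the array gave 34945 of these 1 symbol, 932 several and 9160 none, for 18193 genes. The number of arrays limits the precision.

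Differences between the AIL sets come from limma 3.58.1 in R 4.3.3 with the AQ or AC code as a factor, and carry no test. Interaction, code, parental stage and parental strain were tested with lmFit and eBayes, with Benjamini-Hochberg adjustment over all 45037 probe sets, called at an adjusted p under 0.05, after a check on simulated data. Controls were compared by exact permutation within code. The 37 lists (664 of 710 members measured) and the members were chosen with earlier results of these data known. Named genes are the 10 highest and 10 lowest separated genes, up to 4 separated and 2 overlapping members of a described list with the largest difference or highest mean, and a fixed set of genes; others are said to be chosen after their values were seen. Alternatives were quantile normalization, equal array medians, a mean of at least 5, another variance model, other probe set choices, 1 code alone, a replicate block and each array left out; leaving out both AC1 and AC3 was added after seeing the data. Figures were drawn with matplotlib 3.10.9.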

Additional observations from a re-analysis of the deposited data

Results flagged for a closer look

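Within the sets, 118 groups of values were searched for a single array far from the others. The search gave 7 such cases, with AC1 and AC3 each found more than once. Chance alone picks about 1 in 20 groups. The skeletal muscle score was 3.28 on AC1, against -0.49 to -0.30 on the rest of its set, and Ckm, the muscle creatine kinase, was 11.68 on AC1, against 6.29 to 6.56. The hybridisation spike level was 10.002 on AC3, against 11.1 to 11.3 on the others, and the 18S rRNA level was 6.87 on AC3, against 7.42 to 7.71. Vwf was 5.35 on AQ3, against 4.89 to 5.05, and Cemip2 was 4.77 on AQ1, against 5.41 to 5.73. In arrays 4 and 5, Lalba was 13.87 on AQ4, against 14.58 to 14.64.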

How the results depend on the processing

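The division was described on 6 and 4 arrays, from whole tissue and with no test, and fewer arrays make separation easier by construction. Genes separated and higher numbered 553, but 2552 within the AC arrays alone, 2390 within AQ, 909 without both AC1 and AC3 (chosen after seeing the data) and 654 to 844 with 1 array left out. Separated and lower genes numbered 771, against 3242 in AC, 2872 in AQ, 1302 without both and 880 to 1177 with 1 left out. At 2-fold, 28 higher genes became 47 in AC, 50 in AQ and 120 at 1.5-fold, and the 1 lower gene became 0 under quantile normalization, 16 in AC, 13 in AQ, 5 without both, 48 at 1.5-fold and 1 to 4 with 1 left out (over 1 without AC1, AC2, AC3, AQ4 or AQ5). The endothelial median stayed between 0.56 and 0.66 with 1 array left out, and was 0.69 in AQ, 0.54 over the mean of all probe sets, 0.72 with the probe set of largest SD and 0.59 without both. Fibroblasts ran from 0.26 to 0.38 with 1 left out, and 16 members were separated in AC. White adipocyte members numbered 11 in AC, 5 in AQ, 5 without both and 3 to 8 with 1 left out, and nuclear members 16 in AQ. The luminal median was -0.072 under quantile normalization, -0.28 in AC, -0.071 over the mean of probe sets and -0.23 to -0.084 with 1 left out; its separated members were 10 in AC, 7 in AQ and 1 over the mean. The milk protein median, -0.02, was -0.056 with equal medians and turned positive in AQ (0.0064), over the mean of probe sets (0.037), with the largest SD (0.12), without both (0.0019) and without AC1 or AC4 (range with 1 left out -0.024 to 0.028); the cause was not tested. Signs also turned for myoepithelium in AC (-0.13) and without AQ4 (-0.053, highest 0.11), T and NK cells (-0.015) and nerve (0.016) with the largest SD, nerve in AQ (0.019), antigen processing in AQ (0.16), milk transporters over the mean (0.0017) and with the largest SD (0.045), Vwf in AC (-0.016), and in AQ Krt18 (0.11), Acta2 (0.36), Tpm2 (0.26) and Krt14 (0.080).

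Deviations from the mean of each group, with the 2 sets as separate groups, were compared between same-numbered arrays. The difference between the sets was thus removed beforehand, and its sharing by AQ and AC is not addressed. Within groups, r was -0.09 to 0.09 for AQ and AC arrays. With 2 arrays in a group, numbers 4 and 5 gave the same value by construction. Parental arrays had r of -0.00 to 0.12 between stages and -0.10 to -0.08 between strains. The numbers were not treated as pairs. With a replicate block, interaction and code stayed at 0, stage gave 29910 probe sets against 31747 and strain 99 against 130. Stage gave 17887 with a mean of at least 5 and 30090 to 33556 with 1 array left out. Strain gave 230 under quantile normalization and 83 to 179 with 1 left out, with 83 or 86 without CBA/CaH array 2 or 3 or QSi5 array 1 or 2. The interaction gave 0 to 10 and the code 0 to 5 with 1 array left out.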
